A study of Rattus norvegicus with 4 samples.

Results

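The genes described here encode tubulins, the proteins that bind and nucleate them, the kinesin and dynein motors that move along microtubules, and the components that build cilia. They were chosen by name as the probe sets listed under a single symbol for alpha-, beta- and gamma-tubulins and gamma-tubulin complex proteins, numbered kinesins, cytoplasmic dynein and dynein light chain subunits, dynactin subunits, stathmins, tektins, intraflagellar transport (IFT) proteins and axonemal dyneins. This gave 138 probe sets of 97 genes, among 14218 genes with a single listed symbol on the array. Each gene was represented by its probe set with the highest mean over the 4 arrays, and 77 of the 97 were bright enough to be tested, while 20 were among the dimmest 40% of probe sets (mean below an intensity of about 27.8) and were left untested.

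The tissue was whole ovary of Rattus norvegicus, taken on postnatal day 4 and kept in organ culture for 10 days on floating filters in a defined medium with insulin, transferrin and ascorbic acid. Control ovaries received no treatment, and the others received 50 ng/mL anti-Müllerian hormone (AMH), the hormone whose action on the step from primordial to primary follicle the series title names. RNA of about 10 ovaries was pooled for each sample, and 2 independent pools per group were each measured on 1 Affymetrix array. Because whole organs were pooled, a lower value can mean fewer cells of a type or less RNA per cell, and these cannot be told apart. Strain and the source of the hormone are not known from the labels.

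Microtubules are hollow polymers of alpha- and beta-tubulin dimers that grow from gamma-tubulin ring complexes and are shortened by proteins such as stathmin. Kinesins and cytoplasmic dynein, which works with its activator dynactin, carry cargo along them and position chromosomes in the spindle. Most cell types of the ovary can form a primary cilium, assembled by IFT trains, whereas motile cilia with axonemal dyneins and tektins belong to the multiciliated epithelium of the neighbouring oviduct and rete. In the ovary the spindle genes follow dividing granulosa and stromal cells, and the oocyte stores tubulins and motors for its own meiotic spindle.

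The arrays separated by group, with a correlation across tested probe sets of 0.974 between controls and 0.955 between AMH arrays against 0.877 to 0.902 across groups. The GAPDH 3′ control probe set read 1.17 and 1.27 times the 5′ one in control, against 6.56 and 6.37 times with AMH, a measure that climbs when RNA or its labelled copy is short. The names of the chips ended in 2 strings, 0 of them shared between the groups, so that any difference in when the arrays were handled and the treatment cannot be told apart. Fixed marker lists held calls as well, to be read beside 11.1% of all tested genes higher and 11.9% lower. Of 7 tested oocyte markers 4 were lower, while Zp1, Zp2 and Zp3 were not called. The summed intensities of the 7 were 10375 and 9743 in control and 7356 and 7740 with AMH. Of the 4 lower genes, Bmp15 (147.5 and 115.2 in control, 22.6 and 22.3 with AMH) passed the filter through its control arrays alone, and its call supports no count. Of 10 tested granulosa markers 3 were higher, with sums of 3224 and 2626 in control and 6959 and 4131 with AMH. Inha, which was not called, held 518.3 and 468.1 of these in control and 1930.6 and 566.2 with AMH. Among 7 macrophage and leukocyte markers 1 was higher. Their sums differed between the AMH pools, with 1171 and 1010 in control and 757.6 and 2239 with AMH. Of 18 neuronal markers 8 were tested and 3 of these were lower (Elavl2, Ina and Uchl1). The sums of the 18 were 4684 and 4333 in control and 1428 and 1392 with AMH. Without Elavl2 and Uchl1, which make up most of the control sums, the sums were 1107 and 882 in control and 615 and 755 with AMH. Prph, which was not called and whose groups overlapped, held 501.5 and 263.3 of these in control and 121 and 296.3 with AMH. Whether Elavl2 and Uchl1 were read from neurons or from other cells of the ovary was not tested. Of 10 stromal and smooth muscle markers 1 was higher and 4 lower, Col1a1 among them (4330 and 3364 in control, 336.4 and 639.3 with AMH), with sums of 21194 and 20441 against 13895 and 18921. The red cell gene Hbb fell from 1362 and 1167 to 89.4 and 55.3. The oocyte gene Zp3 (1978 to 2722) and the granulosa gene Foxl2 (395.1 to 617) were bright on all 4 arrays, as the ovarian label requires. The part of these differences in the results below was not tested.

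A total of 17 genes changed with AMH, in both directions and about as often as genes in general. Of the 77 tested genes 9 were higher, 8 lower and 60 not called at an adjusted p of 0.05 (limma with Benjamini-Hochberg adjustment over all 18625 tested probe sets, 2 arrays per group). That is 11.7% higher and 10.4% lower, against 11.1% and 11.9% of all 10621 tested genes, and 22.1% in either direction against 23%. Over all tested probe sets 8.67% were higher and 12.8% lower. Of the genes called higher, Dnah7 passed the filter on dim probe sets through its AMH arrays alone, which leaves 8 higher without it. The rises were those of Kif16b, Dnai7, Dnah7, Tubg1, Kif7, Kif20b, Kif5b, Dync1li2 and Tubgcp2, and the falls those of Tekt1, Dynlrb1, Tubb6, Ift20, Kif18b, Dctn2, Tubb5 and Stmn1. Each change is given as log2(intensity + 16) with AMH less that in control, ± its standard error. Because of the added constant, changes of dim genes come out too small. They ran from -1.25 to 1.12, with a median of 0.19 beside 0.07 over all tested genes. The AMH arrays both lay above both controls for 33 of the 77 genes (42.9%, against 36% of all tested genes) and both below for 18 (23.4%, against 28.6%). Called genes were picked by the same values, so that groups that do not overlap are no further support for a call below.

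How many genes rose or fell depended on the scale. When each array was scaled to its added hybridization controls, whose geometric means were 947.6 and 1045 in control and 1530 and 1266 with AMH, the median change of all tested probe sets was -0.39. On that scale 0 genes of the group were higher (2 at an unadjusted p under 0.05 in limma) and 15 lower, with all 8 of the falls kept and all 9 of the rises lost. The directions given below are therefore relative to the average transcript on the array. The falls of Tubb6, Dynlrb1 and Ift20 passed in all 16 alternative settings.

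**Figure D1:**
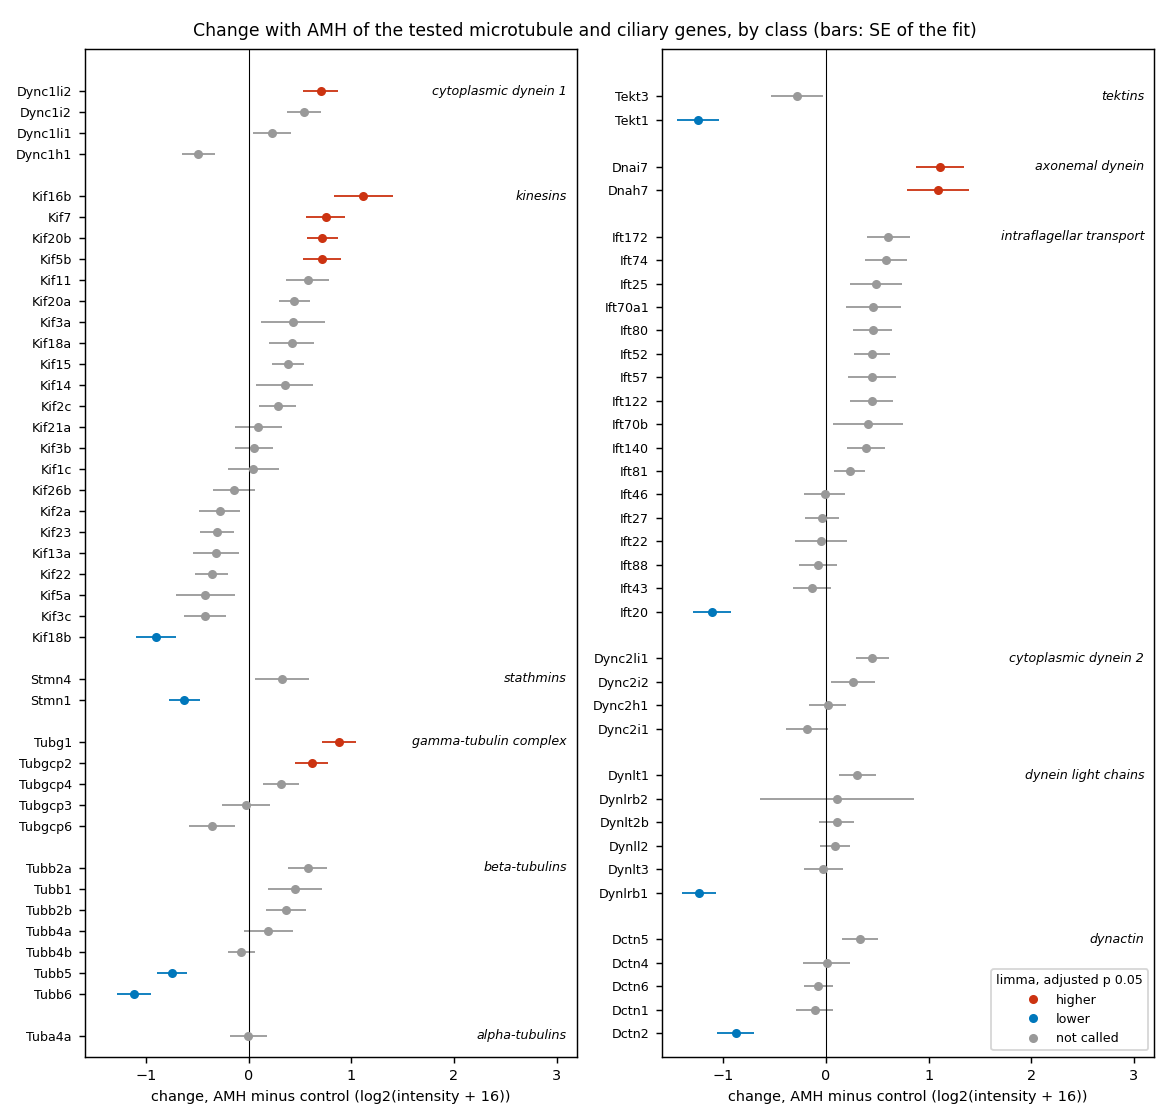
Change with AMH of each of the 77 tested genes by class, on the log2(intensity + 16) scale, with bars for the standard error of the limma fit (2 arrays per group). Red points were higher, blue points lower and grey points not called at an adjusted p of 0.05; calls lie on both sides of 0, the 17 IFT genes hold a single call (Ift20), and the bar of Dynlrb2 is the widest.

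Of 7 tested beta-tubulin genes Tubb6 and Tubb5 fell and 5 were not called, and the alpha-tubulin gene that could be tested was not called. Only 2 alpha-tubulin genes, Tuba4a and Tuba8, had a probe set under a single symbol. Tuba1a, Tuba1b and Tuba1c were not among the genes, so that alpha-tubulin as a whole was not measured here. Tubb6 encodes a beta-tubulin isotype common outside the nervous system, and Tubb5 one present in nearly all dividing cells. Tubb6 gave intensities of 980.4 and 970.4 in control and 503.4 and 385 with AMH. This is a change of -1.12 ± 0.17 (2.17-fold, adjusted p = 0.0041). Tubb5 gave 1472 and 1527 in control and 946.9 and 831.6 with AMH, a change of -0.75 ± 0.14 (1.68-fold, adjusted p = 0.0099). For both genes every AMH array lay below every control array and the controls lay close together. A second probe set of Tubb5, almost as bright, showed no such fall. It read 1306 and 889.2 in control and 1341 and 915.8 with AMH (0.04 ± 0.23, adjusted p = 0.924), and the mean of both had an adjusted p of 0.192. The call of Tubb5 also ended without control replicate 1 (0.0758) and without control replicate 2 (0.084).

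Tubb2a, a beta-tubulin abundant in neurons but made elsewhere too, read 626.4 and 900.3 in control and 1085 and 1167 with AMH. Both AMH arrays lay above both controls, yet the change of 0.57 ± 0.19 was not called (adjusted p = 0.0635). It passed without control replicate 2, without AMH replicate 1 and with a trend in gene span removed. Tubb4b, the isotype favoured in ciliary axonemes, varied little, with 1559 and 1528 in control and 1495 and 1442 with AMH (-0.07 ± 0.13). Tubb2b (0.36 ± 0.20) and the alpha-tubulin gene Tuba4a (0.00 ± 0.18, 204.2 to 246.1) were not called either. The megakaryocyte isotype Tubb1 and Tubb4a were dim and not called, and the neuronal isotype Tubb3 (17.8 to 43.2) and Tuba8 (6.4 to 17.6) were below the filter. Beta-tubulin coding sequences are much alike, and 3 of the 5 probe sets of Tubb3 and Tubb4a carry a suffix that Affymetrix gives where probes can match other transcripts, so that these readings are uncertain.

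Stmn1, which sequesters tubulin dimers and is bright in dividing and germ cells, fell. It gave 2476 and 2105 in control and 1573 and 1374 with AMH, a change of -0.63 ± 0.15 (1.55-fold, adjusted p = 0.0225). The groups did not overlap. The call ended without control replicate 1 (0.241) and control replicate 2 (0.0691), with no filter on dim probe sets (0.0529), with median centring (0.0502) and without an intensity trend (0.0684). Its neuronal relatives were dim: Stmn4 was not called (0.32 ± 0.27), and Stmn2 (0.6 to 25.7) and Stmn3 (24.8 to 31.4) were below the filter. Of the 18 measured neuronal markers 10 were below the filter as well, among them Nefl, Elavl3, Snap25, Th, Dbh and Chrna3. The other 8 were bright enough to be tested, among them Prph (121 to 501.5) and Nefh (104.4 to 163.1).

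Of 5 gamma-tubulin complex genes, which nucleate microtubules, 2 rose and 3 were not called. Tubg1, gamma-tubulin itself, read 271.8 and 257 in control and 535.7 and 465.5 with AMH, a change of 0.88 ± 0.16 (1.84-fold, adjusted p = 0.00841). Tubgcp2, a core subunit that holds gamma-tubulin in its small complex, read 304.4 and 364.2 in control and 507.4 and 527.3 with AMH (0.61 ± 0.16, 1.53-fold, adjusted p = 0.032). Neither gene's groups overlapped. The partner of Tubgcp2 in that complex, Tubgcp3, was not called (-0.03 ± 0.24). The ring complex subunits Tubgcp4 (0.31 ± 0.17) and Tubgcp6 (-0.36 ± 0.22) were not called. The call of Tubg1 ended without control replicate 2 (0.0583) and with hybridization control scaling (0.185). That of Tubgcp2 ended without control replicate 1 (0.296) or 2 (0.0914), without an intensity trend (0.0686) and with hybridization control scaling (0.671).

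**Figure D2:**
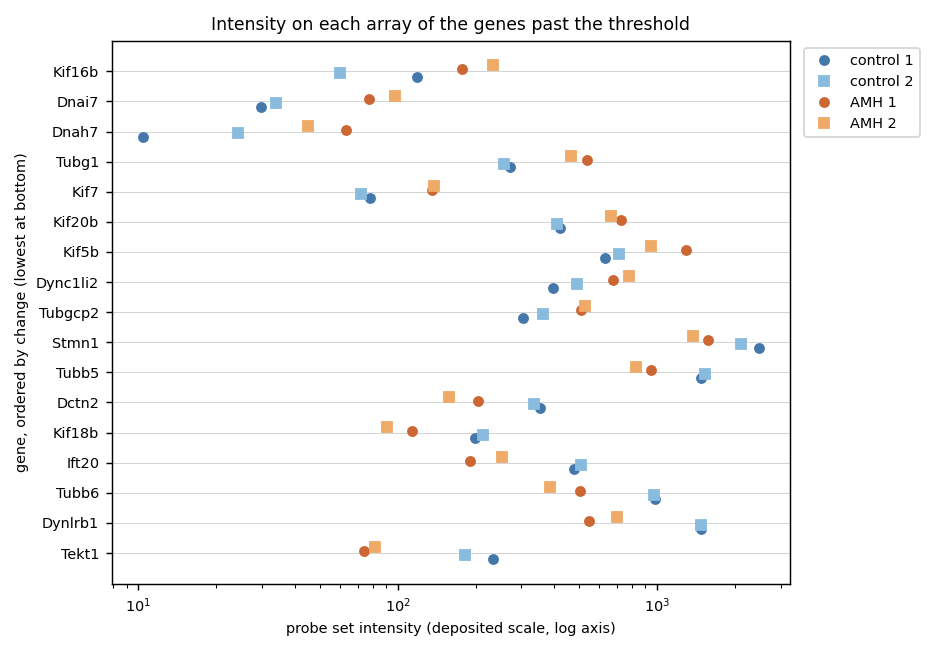
Intensity on each of the 4 arrays (log axis) of the 17 genes past the threshold, ordered by change with AMH. Blue symbols are control and orange symbols AMH arrays, circles replicate 1 and squares replicate 2. The control and AMH arrays do not overlap for any of these genes, which were picked by the same values, so that this is no further support. Of all tested genes 36% had both AMH arrays above both controls and 28.6% both below. The control arrays of Kif16b and Dnah7 lie farthest apart.

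Kinesins formed the largest class, with 22 of 27 genes tested, 4 higher, 1 lower and 17 not called. The 10 kinesins of the spindle and midbody, a grouping made with the results known, held 1 rise and 1 fall. Kif20b, which acts in the completion of cell division, gave 422.6 and 410.9 in control and 724.1 and 667.5 with AMH, a change of 0.72 ± 0.15 (1.64-fold, adjusted p = 0.013). Kif18b, which shortens the astral microtubules of the spindle, gave 198.1 and 212.8 in control and 114 and 91.2 with AMH (-0.91 ± 0.19, 1.88-fold, adjusted p = 0.0142). The 2 genes therefore moved in opposite directions, each with replicates close together. Both calls ended without either control array: the adjusted p of Kif20b was 0.101 and 0.103 and that of Kif18b 0.074 and 0.0934, without control replicate 1 and 2 in that order. With hybridization control scaling Kif20b gave 0.25 (0.432).

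The other spindle kinesins were not called. Kif20a, a relative of Kif20b at the midzone, read 747.8 and 824.3 in control and 995.3 and 1158 with AMH (0.44 ± 0.15, adjusted p = 0.072). Kif11, the motor that separates spindle poles, gave 0.57 ± 0.21 (adjusted p = 0.0919) and Kif15, which can stand in for it, 0.38 ± 0.16. Kif23 of the midbody (-0.31 ± 0.17) and the chromosome-bound Kif22 (-0.36 ± 0.16) lay on the other side of 0. Kif14, Kif18a and Kif2c gave 0.28 to 0.42. Of these 10 genes 6 had both AMH arrays above both controls and 3 had both below, against 36% and 28.6% of all tested genes.

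Of the 12 tested kinesins of transport and other duties 3 rose. Kif5b, the heavy chain of conventional kinesin in most cells, read 631.8 and 714.3 in control and 1298 and 950.4 with AMH, a change of 0.71 ± 0.18 (1.64-fold, adjusted p = 0.0275). Kif7, which works at the ciliary tip in Hedgehog signalling, read 77.9 and 72.2 in control and 136.2 and 137.5 with AMH (0.75 ± 0.19, 1.68-fold, adjusted p = 0.0288). Kif16b, a motor of early endosomes, read 119.1 and 59.8 in control and 176.3 and 233.9 with AMH (1.12 ± 0.29, 2.17-fold, adjusted p = 0.0289). The groups of all 3 were apart, although for Kif16b the control arrays lay as far from each other as from the nearer AMH array.

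These 3 calls were among those that alternatives ended. Without control replicate 1 the adjusted p was 0.177 for Kif5b and 0.144 for Kif7, and without control replicate 2 it was 0.0692 for Kif5b, 0.176 for Kif7 and 0.166 for Kif16b, whose change was then 0.70. Without AMH replicate 2 that of Kif16b was 0.0545. With no filter it was 0.0529 for Kif5b, 0.056 for Kif7 and 0.0598 for Kif16b, and with hybridization control scaling 0.445, 0.321 and 0.163. Without an intensity trend that of Kif5b was 0.0674. Second probe sets of Kif5b (-0.26 ± 0.25) and Kif16b (-0.08 ± 0.23) were not called, and the mean over the probe sets had an adjusted p of 0.439 and 0.155.

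The heterotrimeric kinesin-2 genes, whose product drives IFT trains outward along the cilium, were not called: Kif3a read 69 and 71.2 in control and 66.3 and 147.3 with AMH (0.43 ± 0.31), Kif3b gave 0.05 ± 0.18 and Kif3c -0.43 ± 0.20. Kif2a (-0.28 ± 0.20), Kif13a (-0.32 ± 0.23), Kif1c, Kif21a, Kif26b and Kif5a were not called. Kif12, Kif1a, Kif1b, Kif5c and Kif6 were below the filter, at 3.1 to 36.4. The neuronal motors Kif1a and Kif5c were thus below the filter, as were Tubb3, Stmn2 and Stmn3. Their relatives Kif5a (27.3 to 63.4) and Stmn4 (31.7 to 60.9) passed it.

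Of 4 tested subunit genes of cytoplasmic dynein 1, the main minus-end motor, 1 was called. Dync1li2, a light intermediate chain that links the motor to cargo, rose, with 396.1 and 491.6 in control and 676.1 and 780.5 with AMH (0.70 ± 0.17, 1.62-fold, adjusted p = 0.0236). Dync1i2, an intermediate chain, read 426.8 and 526 in control and 665 and 726.9 with AMH, and its change of 0.54 ± 0.16 was just short of a call (adjusted p = 0.0504) but passed in 5 of 16 alternatives. The heavy chain gene Dync1h1, which carries the motor domain, read 532.5 and 508.6 in control and 394.4 and 338.6 with AMH (-0.49 ± 0.16, adjusted p = 0.0603) and passed downward in 4 of 16 alternatives. For these genes the groups did not overlap, which held upward for 36% and downward for 28.6% of all tested genes. Dync1li1 (0.22 ± 0.19) was not called and Dync1i1, the neuronal intermediate chain, was below the filter. The call of Dync1li2 ended without control replicate 1 (0.23), without an intensity trend (0.0572) and with hybridization control scaling (0.514).

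Dynlrb1, a roadblock light chain shared by cytoplasmic dyneins, showed the largest fall of the dynein genes. It gave 1481 and 1479 in control and 545.6 and 699.1 with AMH, a change of -1.24 ± 0.16 (2.36-fold, adjusted p = 0.00219). The control arrays agreed closely and both AMH arrays lay far below them. The light chains Dynll2 (0.09 ± 0.15), Dynlt1 (0.30 ± 0.18), Dynlt2b (0.10 ± 0.17) and Dynlt3 (-0.03 ± 0.19) were not called, and Dynlt5 was below the filter (0.4 to 4.9). In dynactin 1 of 5 genes changed. Dctn2, or dynamitin, which joins the cargo filament of dynactin to its arm, fell, with 354.1 and 335.1 in control and 203.9 and 158 with AMH (-0.88 ± 0.18, 1.84-fold, adjusted p = 0.0129). Dctn1, the arm itself (-0.11 ± 0.18), Dctn4 (0.01 ± 0.23), Dctn5 (0.33 ± 0.17) and Dctn6 (-0.07 ± 0.15) were not called. The call of Dctn2 ended without control replicate 1 (0.0944) and control replicate 2 (0.0556).

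Of the 17 IFT genes, all of which could be tested, Ift20 fell and 16 were not called. Ift20 belongs to the IFT-B train and also sits at the Golgi, from where it helps to send membrane proteins to the cilium. It read 477.4 and 508 in control and 190.2 and 252.9 with AMH, a change of -1.11 ± 0.18 (2.16-fold, adjusted p = 0.00551). The brightest probe sets of the other 16 genes ran from -0.14 to 0.61, with 11 above 0. Dimmer ones reached lower, uncalled values, with -0.82 (adjusted p = 0.0502) and -0.50 for Ift81, -0.56 for Ift46 and -0.46 for Ift25. Both AMH arrays lay above both controls for 10 of the 17 IFT genes (58.8%, against 36% of all tested genes) and below for 2 (11.8%, against 28.6%). The number called higher was 0. At an unadjusted p under 0.05 in limma 4 were upward and 1 downward, and the share of all genes at that level was not counted. The largest uncalled rise was that of Ift172, an adaptor of the train that turns it around at the tip. It read 76 and 97 in control and 151.6 and 128 with AMH (0.61 ± 0.21, adjusted p = 0.0731). Ift74, which with Ift81 binds tubulin as cargo, read 191.2 and 192.9 in control and 248.4 and 351.7 with AMH (0.58 ± 0.20, adjusted p = 0.0726).

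The brightest uncalled IFT genes were Ift81 (0.23 ± 0.15), Ift27 (-0.04 ± 0.17) and Ift25 (0.49 ± 0.25). Ift25 and several relatives had an AMH replicate 2 well above AMH replicate 1, such as 284.3 and 509.6 for Ift25, 170 and 272.4 for Ift57 and 50.1 and 124.4 for Ift70b. Without AMH replicate 1 the number of higher genes in the whole group of 77 went from 9 to 20. That fit holds a single AMH array and takes its spread from the control pair. In it Ift25, Ift57, Ift70a1, Ift70b and Ift74 were among those gained. Cytoplasmic dynein 2, which returns IFT trains to the cell body, was measured through 4 genes and none was called, with 1 at an unadjusted p under 0.05 in limma. Dync2li1 gave 0.45 ± 0.16 (303.6 and 332.6 in control, 419.7 and 461.7 with AMH, adjusted p = 0.0784), its heavy chain Dync2h1 0.02 ± 0.18 (131.7 to 140.8) and Dync2i1 -0.19 ± 0.20.

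Genes of motile cilia were mostly dim, and Tekt1 fell while Dnai7 and the dim Dnah7 were called higher. Tekt1, a tektin of the filaments inside ciliary and flagellar doublets, fell, with 234 and 181.4 in control and 74.1 and 81.5 with AMH (-1.25 ± 0.20, 2.37-fold, adjusted p = 0.00536). Without control replicate 1 its change was -1.07 (adjusted p = 0.0508). Dnai7, a protein of axonemal dynein complexes, rose from 29.8 and 34 to 77.7 and 98 (1.11 ± 0.23, 2.16-fold, adjusted p = 0.0136). Dnah7, an inner arm heavy chain, rose from 10.4 and 24.3 to 63.1 and 45.1 (1.09 ± 0.30, adjusted p = 0.0372). Both control readings of Dnah7 were under 27.8, so that it passed the filter through its AMH arrays and had to differ to be tested, and its call supports no count. Its change varied with the constant added to the intensities: it was 0.54 with 64 and 1.68 with 1. The call of Dnah7 ended without control replicate 1 (0.243), without AMH replicate 1 (0.0794), with no filter (0.0841), with hybridization control scaling (0.0678) and among gene means (0.0501), and that of Dnai7 without control replicate 1 (0.0821) and with hybridization control scaling (0.0575). Tekt3 was not called (-0.28 ± 0.25). Dnah1, Dnah2, Dnah17 and Dnai1 (2.1 to 27) and Tekt2, Tekt4, Tekt5, Tekt5l1 and Tektl1 (0.6 to 34.9) were below the filter.

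A different pattern appeared in the ciliated-cell gene Dynlrb2, the second roadblock light chain. It read 26.5 and 140.2 in control and 24 and 177.2 with AMH. The replicate 2 arrays were thus high and the replicate 1 arrays low in both groups, and the groups overlapped (0.11 ± 0.75, adjusted p = 0.936). By the smaller of its differences between replicates (1.88 on the log2 scale) Dynlrb2 ranked 3 of 18625 tested probe sets, and it was the only tested gene of the group among the 24 probe sets (0.129%) at least 2-fold higher on replicate 2 in both groups. With the replicate number as a block its standard error was 0.24 in place of 0.75 and it remained uncalled (adjusted p = 0.784). The dim tektins Tekt4 (1 and 22.1 in control, 4.8 and 32.7 with AMH) and Tekt2 (16.2 and 34.9 in control, 8.4 and 32.7 with AMH) showed the same order at low intensities. Over all 97 genes this order had no excess, with 29 genes higher on replicate 2 in both groups and 29 higher on replicate 1 in both. The neighbouring lists given below varied. In that of ciliary transport 18 of 33 measured genes were higher on replicate 2 in both groups and 4 on replicate 1 in both. Among microtubule-associated, plus-end and severing proteins these counts were 3 and 13 of 32. They were 8 and 5 of 32 for tubulin folding and modification, 5 and 7 of 22 for dynein and kinesin cofactors and 1 and 6 of 24 for spindle regulators. The share of all genes with either order was not counted, so that no list can be called unusual.

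Markers of multiciliated epithelium were measured for 15 of 30 listed genes, of which 6 could be tested and none was called (0 at an unadjusted p under 0.05 in limma). Foxj1, the master regulator of motile cilia, was near the filter level on all arrays (23.8 and 31.2 in control, 28.3 and 29.7 with AMH). The summed intensity of the 15 was 254.6 and 359.4 in control and 346.9 and 475.8 with AMH. It was thus higher on replicate 2 in both groups. Singly this held for 8 of the 15 genes, while Dnaaf1, Tmem212 and Spag16 were higher on replicate 1 in both. Cfap126 (15.2 and 38.6 in control, 4.1 and 67.5 with AMH), Rsph1 (3.2 and 35.4, 2.1 and 19.6) and Ccdc113 (0.5 and 9, 2.7 and 35.9) shared that order with Dynlrb2. The part of such cells in the readings of Dynlrb2, Tekt2 and Tekt4 was not tested.

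**Figure D3:**
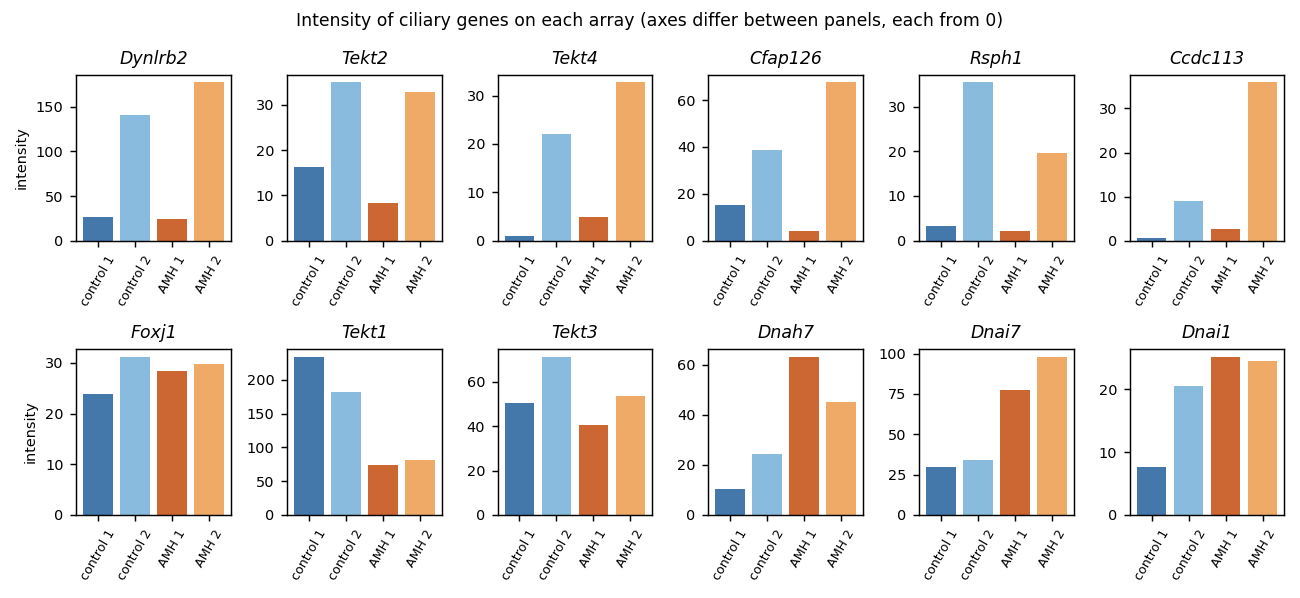
Intensity on each array of 12 ciliary genes, with 1 bar per array (control in blue, AMH in orange) and a separate axis from 0 in each panel. Dynlrb2, Tekt2, Tekt4, Cfap126, Rsph1 and Ccdc113 are higher on replicate 2 of both groups, and Foxj1 and Tekt3 differ less. The groups of Tekt1, Dnah7, Dnai7 and the dim, untested Dnai1 do not overlap. Dnah7 passed the filter through its AMH arrays alone.

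The promoters of these genes are shown because ciliary genes share a sequence, the X-box, that RFX transcription factors bind as a pair of inverted repeats. The letters GTTNC followed by GNAAC with 3 or 4 bases of any kind between them, a pattern that reads the same on both strands, were searched in the 250 bases before the start of each gene in RefSeq (GRCr8). The pattern was chosen after these promoters and the values of the genes had been seen. Promoters were on hand for 82 of the 97 genes, and 5 of these (6.1%) held a match against 438 of 27457 genes (1.6%). Because the pattern was chosen after these promoters had been seen, the comparison cannot show an excess. The 5 were Dynlrb2, 2 of 6 tektins and 2 of 6 axonemal dynein genes. Of the 13 IFT and 24 kinesin promoters 0 held it, which says only that these letters are not in that window. The stretches around the match, with the match in capitals and all 5′ to 3′ on the strand of the gene, are these.
Dynlrb2: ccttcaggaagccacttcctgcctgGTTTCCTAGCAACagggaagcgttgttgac
Tekt2: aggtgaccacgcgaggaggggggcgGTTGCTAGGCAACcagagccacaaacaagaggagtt
Tekt4: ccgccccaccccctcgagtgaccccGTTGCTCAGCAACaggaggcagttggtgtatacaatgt
Dnah7: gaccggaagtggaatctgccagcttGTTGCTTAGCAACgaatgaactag
Dnai1: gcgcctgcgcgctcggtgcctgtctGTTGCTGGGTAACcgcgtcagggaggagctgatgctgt

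These lie at chr19:61429025-61429079 (plus strand) for Dynlrb2, chr5:143907725-143907785 (minus) for Tekt2, chr10:14992210-14992272 (plus) for Tekt4, chr9:62756616-62756664 (minus) for Dnah7 and chr5:61525955-61526017 (plus) for Dnai1. Each match is 13 bases long and begins 30, 36, 49, 24 and 99 bases before the gene's start, in that order. Dynlrb2, Tekt2 and Tekt4 are 3 of the 29 genes that were higher on replicate 2 of both groups. Dnah7 and Dnai1 had both AMH arrays above both controls. Dnah7, which passed the filter through its AMH arrays alone, read 10.4 and 24.3 in control and 63.1 and 45.1 with AMH. The dim, untested Dnai1 read 7.6 and 20.5 in control and 25.2 and 24.6 with AMH. Tekt1, which fell, has none in the window searched. A match is a run of letters and not evidence of binding.

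Several genes read differently through their probe sets. For 14 genes of the group more than 1 probe set was tested, which gave 18 dimmer probe sets beside the brightest ones. The dimmer probe set had the lower change in 13 of 18 (72.2%), with a median difference of -0.45, and over all genes with several tested probe sets this was 2430 of 3419 (71.1%) with -0.39. The sign was opposite in 14 of 18 (77.8%, against 50.4% for all genes) and the call differed in 5 of 18 (27.8%, against 38.8% for all genes). Kif2c, which removes tubulin at kinetochores, was the widest case. Its brighter probe set read 143.3 and 139.2 in control and 184.3 and 166.8 with AMH (0.28 ± 0.18). The dimmer one read 114 and 99.4 in control and 13.2 and 25.1 with AMH (-1.82 ± 0.26, adjusted p = 0.00313 in limma). Both AMH readings of the dimmer one were under 27.8. It therefore passed the filter through its control arrays alone and had to differ to be tested. Its call, 1 of the 5 that differed, supports no count. Dynll2 gave 0.09 ± 0.15 and -0.54 ± 0.16 (adjusted p = 0.043), and Ift81 gave 0.23, -0.50 and -0.82. The place of each probe set along its transcript was not on hand, so its relation to the 3′/5′ ratios (1.17 and 1.27 in control, 6.56 and 6.37 with AMH for GAPDH) was not tested.

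**Figure D4:**
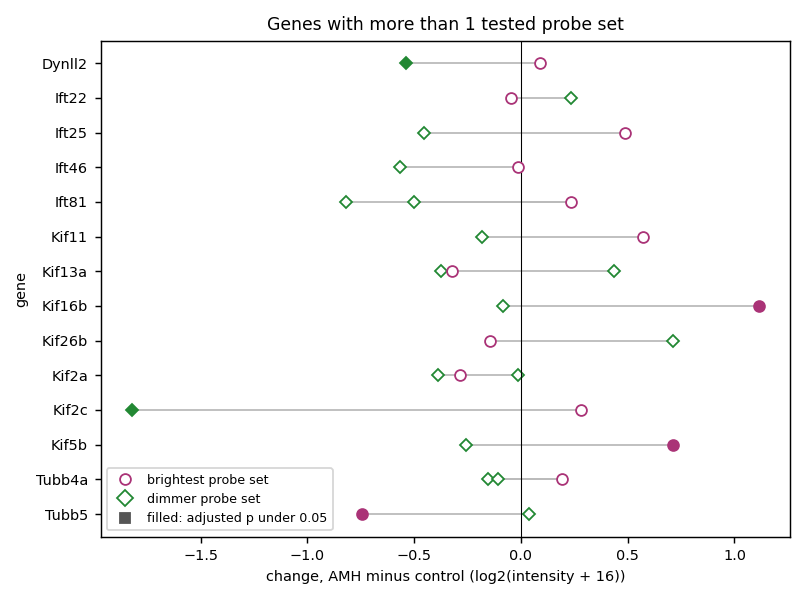
Change with AMH (log2(intensity + 16)) through each tested probe set of the 14 genes that have several, with circles for the brightest and diamonds for the dimmer ones, filled where the adjusted p was under 0.05. Most diamonds lie to the left of their circle, widest for Kif2c (0.28 against -1.82). The dimmer probe set of Kif2c passed the filter through its control arrays alone.

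Genes that work with these motors and polymers were also called in both directions. They were not rerun under the alternatives. Over all tested genes the shares were 11.1% higher and 11.9% lower. Of 29 tested microtubule-associated, plus-end and severing proteins 5 were higher and 4 lower, with a median of 0.05. Of these 5, Tppp (10.6 and 20.4 in control, 70.3 and 40.7 with AMH) passed the filter through its AMH arrays alone. It had to differ to be tested, so that its call supports no count. Dclk1, a doublecortin-like kinase that binds microtubules, rose most by its statistic (65 and 71.8 in control, 295.7 and 162.3 with AMH, 1.48 ± 0.27), followed by the polymerase Ckap5 (0.73 ± 0.16). The severing enzyme gene Katna1 fell, with 1080 and 1113 in control and 570.7 and 558.3 with AMH (-0.94 ± 0.14) and the end-binding gene Mapre2 fell by 1.12 ± 0.22. Tubulin folding and modification held 3 rises and 8 falls among 30, with a median of -0.20. Of these 8, Tpgs1 (77.6 and 61.8 in control, 13.3 and 9.3 with AMH) passed the filter through its control arrays alone, and its call supports no count. Within this list Pfdn5 of prefoldin, which hands nascent tubulin to the chaperonin, fell by 3.66 ± 0.37 and the chaperonin subunit gene Cct2 by 1.19 ± 0.14. Another chaperonin subunit gene, Cct5, rose by 0.60 ± 0.13 and the tubulin cofactor Tbce by 0.71 ± 0.16.

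Of 24 tested spindle regulators 3 were higher and 5 lower, with a median of -0.23. Birc5, or survivin, fell from 252.3 and 236.8 to 62.7 and 54 (-1.81 ± 0.19) and the cyclin gene Ccnb1 by 1.08 ± 0.14, whereas Bub1 of the spindle checkpoint rose by 0.75 ± 0.16 and Cdk1 by 0.70 ± 0.15. As with Kif18b and Kif20b, genes of mitosis thus passed in both directions. Among 20 dynein and kinesin cofactors 1 passed: Trak2, which ties mitochondria to kinesin, fell by 0.88 ± 0.18, while Trak1 (-0.45 ± 0.19), Nudcd2 (0.58 ± 0.18) and the minus-end kinesin gene Kifc1 (0.40 ± 0.16) were not called. Of 29 genes of ciliary transport, the transition zone and the BBSome, a coat that moves membrane proteins out of cilia, 3 rose and 3 fell, with a median of 0.19. The BBSome genes Ttc8 and Bbs4 moved apart, Ttc8 from 107.2 and 68.9 to 199.7 and 264.2 (1.27 ± 0.24) and Bbs4 from 316.2 and 405.2 to 84.6 and 107.1 (-1.75 ± 0.20). Ofd1 of the centriole fell by 1.12 ± 0.18 and Cep164, which anchors it to the membrane, rose by 0.84 ± 0.21. The adjusted p (limma) of the genes given as risen or fallen in these lists lay between 0.000817 for Pfdn5 and 0.0253 for Cep164.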

How the data were processed

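The authors deposited linear intensities in 1 table of 31099 probe sets by 4 arrays. Equal means after trimming 2% at each end (125.03 on every array) show scaling to one target; the software that summarised the probes was not named in the sources. Depth does not apply to arrays, and 2 per group limit the precision. Titles gave each array's group and replicate number. In R 4.3.3 with limma 3.58.1, log2(intensity + 16) was fitted for AMH against control (lmFit, eBayes with intensity trend, two-sided, 2 residual and 6.33 prior degrees of freedom) after leaving out 57 control probe sets and the lowest 40% of the others by mean log2 (5.45, intensity 27.8). The other log2 constants, filters, scalings, variance models, gene means, span trend, arrays left out and replicate block tried are in the closing section. The fit was tested on simulated data.

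Symbols came from the platform annotation (20832 probe sets with 1 symbol, 436 with several, 9831 with none listed). All 97 genes matched a GRCr8 RefSeq gene by Entrez identifier under the same symbol. Named with values are all called genes and up to 3 brightest uncalled genes per class, and from each neighbouring list the 2 highest and 2 lowest by moderated statistic; other genes were named after their values were seen. The genes and lists were chosen with earlier results of these data known.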

Additional observations from a re-analysis of the deposited data

How the results depend on the processing

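The counts of 9 higher and 8 lower genes, and of 1614 higher and 2385 lower probe sets in all, stayed within 1.5 times under most of the 16 alternatives. With no filter on dim probe sets 5 genes and 1010 probe sets were higher. With hybridization control scaling 0 genes were higher (2 at an unadjusted p under 0.05 in limma) and 15 lower with a median of -0.23, and 145 probe sets were higher and 4960 lower. Without an intensity trend 989 probe sets were higher. Leaving out 1 array gave 2 to 20 higher and 3 to 10 lower genes, and 334 to 2245 higher and 1047 to 2886 lower probe sets. The low counts came without control replicate 1, when the spread rests on the AMH pair alone. No called gene changed sign, and 3 of 17 passed throughout. Among the 27 uncalled genes named by rule, 34 of 407 values changed sign without a call. The 40% of probe sets left out include 20 of the 97 genes, whose signal was too dim to test. The replicate numbers are shared between groups, but the labels do not tie them to a litter or day. The differences between replicates correlated at -0.0008 across probe sets, and with the replicate block 9 genes were higher and 8 lower (1350 and 2216 probe sets), the same 17 genes.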

Other observations

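The order seen in Dynlrb2, high on replicate 2 and low on replicate 1 of both groups, was strongest in a few genes outside the microtubule system, named after their values were seen. Cuzd1, an epithelial secretory granule gene, read 8.1 and 117.7 in control and 31 and 293.6 with AMH. Mmp7, a protease of glandular epithelium, read 43.7 and 347.1 in control and 102.9 and 531.9 with AMH. Plac8 (96.8 and 682.4, 236.6 and 838.9), the calcium-binding gene S100g (135.3 and 493.1, 46.6 and 303.9) and Plet1 (49.8 and 308, 128.6 and 376.8) followed. Together with Dynlrb2 these genes held 6 of the top 7 ranks among 18625 tested probe sets.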
